A study of Mus musculus with 48 samples.

Results

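The liver endothelial genes described here are 10 genes chosen by symbol, Stab1, Stab2, Lyve1, Clec4g, Oit3, Kdr, Pecam1, Cd34, Plvap and Vwf, out of 55416 genes in the count files. Each symbol matched a single Ensembl identifier, and all 10 passed the filter on low counts, as did 15711 genes in all. Liver RNA was sequenced from 48 mice of the C57Bl/6J strain in 2 separate studies, each with 8 wild-type (WT), 8 heterozygous (HET) and 8 homozygous (HOM) animals. The DN study used a knock-in of the dominant negative W441R change in LXRα, the liver X receptor encoded by Nr1h3, and the KO study used an LXRα knockout line. Every animal received a western diet for 8 weeks, from 8 to 16 weeks of age, so no group shows these genes on a control diet. The knock-in animals were described as males, and the knockout study was described as a repeat of that experiment. The knock-in was made in C57BL/6J embryos by genome editing and the knockout line was crossed back to C57BL/6, both alleles were carried in all cells, and the studies ran at different sites, so study, line and site cannot be told apart.

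Liver sinusoids are lined by a specialised endothelium that is fenestrated, lies on little basement membrane and clears macromolecules from blood through scavenger receptors. Stab1, Stab2, Lyve1, Clec4g and Oit3 are the sinusoidal genes of the set. Kdr encodes the main VEGF receptor of endothelium and is used by sinusoidal and other vessels alike. Pecam1, Cd34, Plvap and Vwf are the vascular genes, known from endothelium of larger vessels and of capillaries elsewhere. A shift of sinusoids towards a continuous capillary endothelium, with gain of such vascular markers and of basement membrane, is known in injured liver as capillarization. The question put to the data was whether such a pattern was seen in these livers.

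A check of the labels bears on all knock-in values. The library labelled DN:WT animal 10 and the library labelled DN:HOM animal 12 went against their genotype labels, and the study's own source data for 8 genes hold the other 22 knock-in livers. In the library labelled DN:WT animal 10 the summed level of 7 Kupffer cell markers was 3.85 CPM, against 147 to 278 CPM in the other wild-type livers and 2.04 to 4.14 CPM in the homozygous livers. In the library labelled DN:HOM animal 12 it was 169 CPM. No reason for leaving them out is given in the paper, and neither library was moved to another group. Values are given for 46 livers (7 DN:WT, 8 DN:HET, 7 DN:HOM and 8 in each KO group). They are given again for all 48 libraries as labelled for the test of each member in DN:HOM livers, and for some other results. Nr1h3 itself was at 93.6 ± 8.82 CPM (SD, n = 8) in KO:WT, 59.2 ± 5.63 CPM (SD, n = 8) in KO:HET and 27 ± 1.99 CPM (SD, n = 8) in KO:HOM livers. In DN:WT, DN:HET and DN:HOM livers it was at 91.8 ± 5.04 CPM (SD, n = 7), 92.7 ± 4.58 CPM (SD, n = 8) and 72.8 ± 3.56 CPM (SD, n = 7), where the knock-in changes a codon and deletes no part of the transcript. Its DN:WT livers (82.05 to 96.9 CPM) and DN:HOM livers (68.5 to 77.4 CPM) did not overlap, as for 33.5% of all genes. The library labelled DN:WT animal 10 was at 71.3 CPM and that labelled DN:HOM animal 12 at 86.9 CPM. The log2 fold change of Nr1h3 in DN:HOM livers was -0.32, and it depended on the processing. Over 10 alternative settings it ran from -0.33 to 0.11 and passed under 9 of them. Reads on genes lay between 5332897 and 16961379 per liver (median 15879972), and 2 knockout libraries, KO:HET animal 3 and KO:HOM animal 17, held under 10000000. CPM are gene counts scaled to a common number of reads on genes after TMM normalisation, and p-values are adjusted over all genes tested with a threshold of 0.05.

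Per kilobase of exon, the levels in DN:WT livers ran from Plvap at 9.41 ± 1.02 CPM per kilobase (SD, n = 7) to Cd34 at 0.0896 ± 0.0211. Between them came Clec4g at 6.12 ± 1.07, Oit3 at 4.24 ± 0.751, Stab2 at 3.97 ± 0.607, Stab1 at 3.38 ± 0.477, Kdr at 2.52 ± 0.343, Lyve1 at 1.24 ± 0.329, Pecam1 at 1.12 ± 0.214 and Vwf at 0.357 ± 0.0825 CPM per kilobase. The neighbours Oit3 and Stab2, Stab2 and Stab1, and Lyve1 and Pecam1 differed by less than the larger of their SDs. KO:WT livers also had Plvap highest, at 8.19 ± 2.65, and Cd34 lowest, at 0.170 ± 0.102 CPM per kilobase (SD, n = 8). The sinusoidal genes were detected in each of the 48 libraries, at 2.58 CPM or more, while Cd34 rested on 11 to 23 reads per DN:WT liver. In whole liver, fewer endothelial cells and less RNA per cell cannot be told apart.

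The sequence before the start of transcription is shown for 3 members, Cd34 because its difference between genotypes was the largest of the set, and Clec4g and Kdr because their levels varied together between livers. Each stretch holds the 250 bases before the start of the GENCODE canonical transcript on GRCm39, 5′ to 3′ on the strand of the gene. Capitals mark matches, on either strand, to the ETS motif (AGGAAG or CGGAAG) or the GATA motif (AGATAA or TGATAA), which are bound by factors that endothelium uses. The windows lie at chr1:194620877-194621126 on the plus strand for Cd34, chr8:3770672-3770921 on the minus strand for Clec4g and chr5:76139119-76139368 on the minus strand for Kdr.
Cd34: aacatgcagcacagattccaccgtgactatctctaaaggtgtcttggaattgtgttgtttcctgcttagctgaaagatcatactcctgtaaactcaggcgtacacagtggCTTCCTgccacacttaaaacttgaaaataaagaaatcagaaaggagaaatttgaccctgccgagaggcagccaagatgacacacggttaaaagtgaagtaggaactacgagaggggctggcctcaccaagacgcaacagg
Clec4g: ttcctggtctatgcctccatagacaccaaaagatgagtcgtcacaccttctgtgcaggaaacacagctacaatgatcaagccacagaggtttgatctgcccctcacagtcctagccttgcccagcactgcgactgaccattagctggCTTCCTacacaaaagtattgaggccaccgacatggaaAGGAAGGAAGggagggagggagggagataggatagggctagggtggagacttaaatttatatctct
Kdr: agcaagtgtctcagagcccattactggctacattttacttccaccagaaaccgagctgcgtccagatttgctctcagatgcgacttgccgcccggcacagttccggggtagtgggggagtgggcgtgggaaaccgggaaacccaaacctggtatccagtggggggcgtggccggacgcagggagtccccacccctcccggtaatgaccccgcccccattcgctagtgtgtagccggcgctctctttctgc

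Another annotated transcript of Cd34 starts within its window, and one of Kdr starts upstream of its window. Clec4g held 3 ETS matches, 2 of which overlap, Cd34 held 1, and Kdr held none of the motifs searched. An ETS match was found before 5 of the 9 members searched (Stab1, Lyve1, Clec4g, Cd34 and Vwf) and before 41.8% of the 15636 tested genes with a window. A GATA match was found before 3 members (Lyve1, Plvap and Vwf) and before 13% of all. The exact DR4 element known for LXR, AGGTCA repeated in the same direction with a spacer of 4 bases, was before none of these members and before 1 gene in all (0.0064%). A match is a description of letters and not a measured binding site.

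In homozygous knock-in livers the set did not move in a single direction. Against DN:WT livers, 7 of the 10 members passed the test, where 59.1% of all genes tested did. Stab1, Lyve1 and Cd34 rose, where 29.1% of all genes were higher, and Stab2, Clec4g, Oit3 and Kdr fell, where 30% of all were lower. Over all 48 libraries 6 passed, 2 higher and 4 lower, where 7502 of all 15621 genes tested did, 3596 higher and 3906 lower. With library size alone as the scaling, in place of TMM, 5 passed as higher, with Plvap (0.69) and Vwf (0.76) among them, and Kdr alone passed as lower. In that scaling 9283 of all 15711 genes passed as higher and 1738 as lower. With TMM the median log2 fold change of the members was 0.11, against -0.01 over all genes tested. The DN:HOM and DN:WT livers did not overlap for Stab1 and Cd34, as for 33.5% of all genes. The members' shares were thus near those over all genes, and the results below are about each member.

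**Figure D1:**
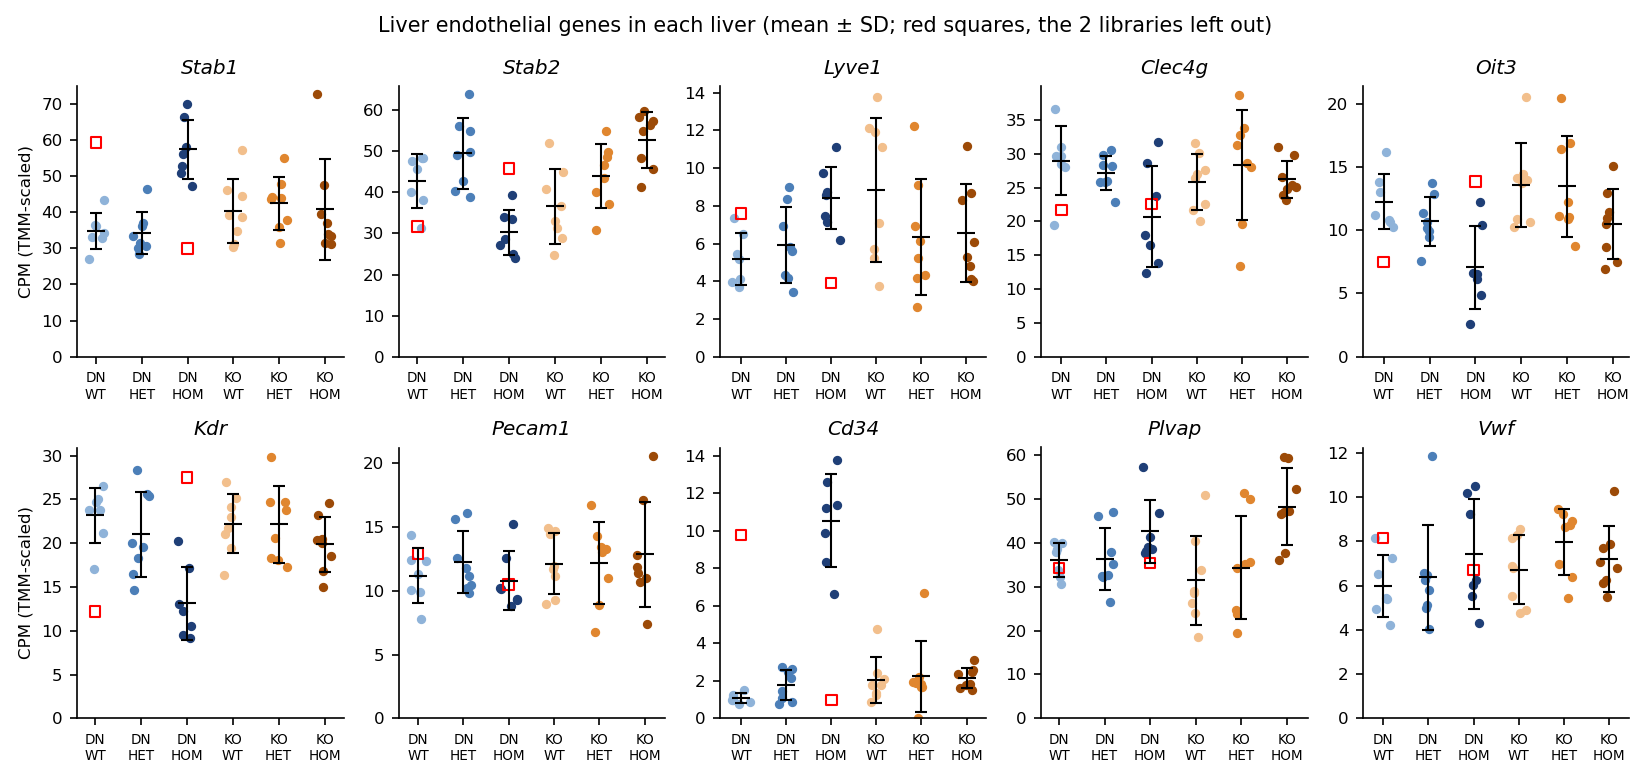
CPM of the 10 genes (vertical axes) in each liver of the 6 genotype groups, with points for the 46 livers, bars for mean ± SD and red squares for the 2 libraries left out. DN:HOM livers lie at 6.60 to 13.7 CPM of Cd34, and outside DN:HOM only the library labelled DN:WT animal 10 (9.77 CPM) and KO:HET animal 9 (6.66 CPM) reach that range.

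Among the scavenger receptors, Stab1 (ENSMUSG00000042286, chromosome 14 from 30860970 to 30890598 on the minus strand) encodes stabilin-1, which sinusoidal endothelium shares with macrophages. Its lowest, median and highest levels were 27.01, 34.3 and 43.4 CPM in DN:WT and 47.3, 56.2 and 69.8 CPM in DN:HOM livers. All 7 homozygous livers were above all 7 wild-type livers. The log2 fold change was 0.74 ± 0.15 (SE, adjusted p = 3.9e-05), or 1.67-fold, and 0.51 ± 0.16 (SE, adjusted p = 0.0078) over 48 libraries. In the knockout study Stab1 was at 30.3, 38.9 and 57.2 CPM in KO:WT and 31.1, 35.5 and 72.6 CPM in KO:HOM livers. These groups overlapped over most of their range, with a log2 fold change of 0.02 ± 0.14 (SE, adjusted p = 0.95).

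Stab2 (ENSMUSG00000035459, chromosome 10 from 86675054 to 86843889 on the minus strand) encodes stabilin-2, the hyaluronan scavenger receptor and the more restricted of the pair to sinusoids. It went the other way from Stab1. DN:WT livers had 31.2, 45.7 and 48.4 CPM, and DN:HOM livers had 23.9, 28.7 and 39.4 CPM, again as lowest, median and highest. The homozygous livers were lower with some overlap, and the log2 fold change was -0.49 ± 0.14 (SE, adjusted p = 0.0021), or -0.36 ± 0.14 (SE, adjusted p = 0.025) over 48 libraries. With library size alone as the scaling it was -0.06 and did not pass. In knockout livers Stab2 rose, from 24.6, 34.8 and 52.1 CPM in KO:WT to 41.2, 55.7 and 59.9 CPM in KO:HOM livers. The log2 fold change there was 0.52 ± 0.13 (SE, adjusted p = 0.0026), 1.44-fold, with an overlap of the groups.

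Lyve1 (ENSMUSG00000030787, chromosome 7 from 110448585 to 110462460 on the minus strand) encodes a hyaluronan receptor of sinusoidal and lymphatic endothelium that some macrophages also carry. It was at 3.68, 5.19 and 7.34 CPM in DN:WT and 6.21, 8.56 and 11.1 CPM in DN:HOM livers. Most homozygous livers were above most wild-type livers, and the log2 fold change was 0.71 ± 0.28 (SE, adjusted p = 0.024). With all 48 libraries it was 0.52 ± 0.27 (SE, adjusted p = 0.1) and did not pass. In the knockout study Lyve1 spread widely, at 3.76, 9.10 and 13.8 CPM in KO:WT and 4.01, 5.70 and 11.2 CPM in KO:HOM livers, with a log2 fold change of -0.43 ± 0.26 (SE, adjusted p = 0.25).

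Macrophage genes moved in the same livers. Of 8 macrophage markers 7 rose in DN:HOM livers (6 over 48 libraries), and their summed level was 118 to 183 CPM in DN:WT and 961 to 1568 CPM in DN:HOM livers. Gpnmb, a gene of lipid-laden macrophages, rose by 7.50 ± 0.84 (SE, adjusted p = 3.1e-10, and 2.33 with adjusted p = 0.038 over 48 libraries) on the log2 scale. All 7 markers of Kupffer cells, the resident macrophages of sinusoids, fell, and their sum went from 147 to 278 CPM to 2.04 to 4.14 CPM. Clec4f, which is restricted to Kupffer cells, changed by -7.74 ± 0.41 (SE, adjusted p = 2.9e-19, and -3.23 with adjusted p = 0.00068 over 48 libraries). In KO:HOM livers 6 of 8 macrophage markers rose and 5 of 7 Kupffer cell markers fell (5 and 4 in the fit of 48 libraries). Of all genes, 11.5% were higher and 7.87% lower in these livers. The sums were 169 to 277 CPM and 84.9 to 322 CPM in KO:WT, against 330 to 1107 CPM and 24.6 to 71.8 CPM in KO:HOM livers. There Gpnmb changed by 3.83 ± 0.66 (SE, adjusted p = 4.7e-05) and Cd5l, a secreted Kupffer cell protein under LXR control, by -6.68 ± 0.51 (SE, adjusted p = 4.2e-13) on the log2 scale. The part of these cells in the levels of Stab1 and Lyve1 was not tested.

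Clec4g (ENSMUSG00000074491, chromosome 8 from 3757064 to 3770671 on the minus strand) encodes the sinusoidal lectin LSECtin. Its levels were 19.5, 29.6 and 36.6 CPM in DN:WT and 12.4, 18.1 and 31.7 CPM in DN:HOM livers. The homozygous livers were spread, with some as high as wild-type livers, and the log2 fold change was -0.47 ± 0.17 (SE, adjusted p = 0.014), or -0.42 ± 0.16 (SE, adjusted p = 0.024) over 48 libraries. Scaled by library size alone, it was -0.05 and did not pass. KO:WT and KO:HOM livers held 20.1, 26.7 and 31.6 CPM and 23.1, 25.2 and 30.9 CPM, with a log2 fold change of 0.01 ± 0.16 (SE, adjusted p = 0.97). Oit3 (ENSMUSG00000009654, chromosome 10 from 59258780 to 59277702 on the minus strand) encodes a secreted protein with a zona pellucida domain and serves as a sinusoidal marker in mouse liver. It fell from 10.2, 11.2 and 16.1 CPM in DN:WT to 2.58, 6.504 and 12.2 CPM in DN:HOM livers. The lowest homozygous liver was far under any wild-type liver while the highest lay within their range, and the log2 fold change was -0.78 ± 0.21 (SE, adjusted p = 0.0016), or -0.56 ± 0.21 (SE, adjusted p = 0.027) over 48 libraries. It was -0.36 and did not pass when scaled by library size alone. In the knockout study Oit3 was at 10.3, 13.8 and 20.5 CPM in KO:WT and 6.94, 10.7 and 15.1 CPM in KO:HOM livers, a log2 fold change of -0.38 ± 0.20 (SE, adjusted p = 0.19) that did not pass.

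Kdr (ENSMUSG00000062960, chromosome 5 from 76093487 to 76139884 on the minus strand) encodes VEGFR2, the receptor through which VEGF-A acts on endothelium. DN:WT livers had 17.1, 23.9 and 26.6 CPM and DN:HOM livers 9.14, 12.3 and 20.3 CPM. Most homozygous livers were under the lowest wild-type liver. Kdr fell, with a log2 fold change of -0.80 ± 0.15 (SE, adjusted p = 1.8e-05), or -0.55 ± 0.17 (SE, adjusted p = 0.0085) over 48 libraries. In the knockout study the levels were 16.3, 22.4 and 26.98 CPM in KO:WT and 15.04, 20.2 and 24.6 CPM in KO:HOM livers, with much overlap and a log2 fold change of -0.17 ± 0.14 (SE, adjusted p = 0.44). Vegfa, which encodes its ligand and is made largely by hepatocytes, had 224 ± 34.1 CPM (SD, n = 7) in DN:WT and 114 ± 11.8 CPM (SD, n = 7) in DN:HOM livers. Vegfa changed by -0.95 ± 0.09 (SE, adjusted p = 1.1e-11, and -0.72 with adjusted p = 5.6e-05 over 48 libraries) in DN:HOM and by -0.39 ± 0.09 (SE, adjusted p = 0.0012) in KO:HOM livers on the log2 scale.

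Of the vascular genes Cd34 alone passed in DN:HOM livers with TMM scaling and all groups fitted together, and its change was the largest of the 10 members. Cd34 (ENSMUSG00000016494, chromosome 1 from 194621029 to 194647172 on the plus strand) encodes a sialomucin of capillary endothelium, and of fibroblasts and blood progenitors, that sinusoids largely lack. Its levels were 0.766, 0.9996 and 1.53 CPM in DN:WT and 6.60, 11.2 and 13.7 CPM in DN:HOM livers. No homozygous liver came near a wild-type liver, and the log2 fold change was 3.30 ± 0.36 (SE, adjusted p = 1.6e-10), 9.84-fold. The library labelled DN:WT animal 10 had 9.77 CPM and that labelled DN:HOM animal 12 had 0.979 CPM, so that over 48 libraries the groups overlapped and the value was 2.08 ± 0.46 (SE, adjusted p = 0.00041). In the knockout study Cd34 was at 0.843, 1.79 and 4.78 CPM in KO:WT and 1.52, 2.08 and 3.09 CPM in KO:HOM livers, with a log2 fold change of 0.06 ± 0.33 (SE, adjusted p = 0.92). By group mean, Cd34 ran from 1.07 ± 0.253 CPM (SD, n = 7) in DN:WT through 1.77 ± 0.816 CPM (SD, n = 8) in DN:HET, 2.03 ± 1.22 CPM (SD, n = 8) in KO:WT, 2.15 ± 0.550 CPM (SD, n = 8) in KO:HOM and 2.23 ± 1.91 CPM (SD, n = 8) in KO:HET to 10.5 ± 2.47 CPM (SD, n = 7) in DN:HOM livers. The KO:HET mean includes animal 9, at 6.66 CPM, where the other KO:HET livers were at 2.21 CPM or less. Neighbours in that order differed by less than the larger of their SDs, except at the step to DN:HOM.

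Markers of mesenchymal cells, some of which carry CD34, rose in the same livers. In DN:HOM livers 9 of 10 mesenchymal and stellate cell markers rose, with a summed level of 776 to 1097 CPM against 183 to 262 CPM in DN:WT livers. Lum, which encodes the matrix proteoglycan lumican, changed by 3.85 ± 0.27 (SE, adjusted p = 5.9e-16, and 2.002 with adjusted p = 0.0009 over 48 libraries) on the log2 scale. In KO:HOM livers 6 of 10 rose (2 in the fit of 48 libraries), with sums of 271 to 492.7 CPM against 176 to 394 CPM in KO:WT livers, and Lum changed by 1.05 ± 0.24 (SE, adjusted p = 0.0013, and 1.05 with adjusted p = 0.17 in the fit of 48 libraries, where it did not pass). The library labelled DN:WT animal 10 had a sum of 1076 CPM and that labelled DN:HOM animal 12 one of 213 CPM. KO:HET animal 9 had a sum of 508 CPM, against 127 to 320 CPM in the other KO:HET livers. The levels did not go together in all livers. KO:WT animal 5, at 4.78 CPM of Cd34, had a sum of 250 CPM. KO:WT animal 23, at 2.41 CPM of Cd34, had a sum of 394 CPM. The part of mesenchymal cells in the level of Cd34 was not tested.

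The other vascular genes did not pass in DN:HOM livers in that fit. Pecam1 (ENSMUSG00000020717, chromosome 11 from 106543689 to 106641454 on the minus strand), the junction molecule CD31 of all endothelium, of leukocytes and of platelets, was at 7.77, 11.3 and 14.3 CPM in DN:WT and 8.79, 10.1 and 15.2 CPM in DN:HOM livers. These ranges nearly coincided, with a log2 fold change of -0.03 ± 0.17 (SE, adjusted p = 0.88), or -0.08 ± 0.16 (SE, adjusted p = 0.7) over 48 libraries. In KO:WT and KO:HOM livers Pecam1 was at 8.94, 11.8 and 14.9 CPM and 7.41, 11.6 and 20.5 CPM, with a log2 fold change of 0.09 ± 0.16 (SE, adjusted p = 0.75). Vwf (ENSMUSG00000001930, chromosome 6 from 125523737 to 125663642 on the plus strand) encodes von Willebrand factor, the clotting glycoprotein of larger vessels, endocardium and platelets. It was at 4.204, 5.45 and 8.14 CPM in DN:WT and 4.29, 6.26 and 10.5 CPM in DN:HOM livers, which overlapped, with a log2 fold change of 0.33 ± 0.20 (SE, adjusted p = 0.15), or 0.23 ± 0.18 (SE, adjusted p = 0.31) over 48 libraries. The knockout groups held 4.74, 6.83 and 8.56 CPM and 5.50, 6.92 and 10.3 CPM, and the log2 fold change was 0.10 ± 0.18 (SE, adjusted p = 0.77).

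Plvap (ENSMUSG00000034845, chromosome 8 from 71948674 to 71964506 on the minus strand) encodes the protein of the diaphragms that close fenestrae and caveolae in endothelium, which mature sinusoids lack. DN:WT livers had 30.6, 37.99 and 40.1 CPM and DN:HOM livers 37.6, 38.98 and 57.4 CPM. The homozygous livers lay in and above the wild-type range, and the log2 fold change of 0.25 ± 0.17 (SE, adjusted p = 0.21), or 0.22 ± 0.16 (SE, adjusted p = 0.27) over 48 libraries, did not pass. In knockout livers Plvap rose, from 18.6, 28.8 and 50.9 CPM in KO:WT to 36.1, 47.1 and 59.7 CPM in KO:HOM livers. The groups overlapped, and the log2 fold change was 0.61 ± 0.16 (SE, adjusted p = 0.0049), 1.53-fold.

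Markers of blood cells that share Pecam1 or Vwf moved as follows. Of 6 leukocyte markers 4 rose in DN:HOM and 5 in KO:HOM livers, with summed levels of 27.1 to 52.6 CPM in DN:WT, 113 to 172 CPM in DN:HOM, 15.1 to 46.2 CPM in KO:WT and 62.7 to 212 CPM in KO:HOM livers. Among them Coro1a changed by 2.41 ± 0.39 (SE, adjusted p = 8.7e-07, and 1.65 with adjusted p = 0.0019 over 48 libraries) in DN:HOM and Cd52 by 2.42 ± 0.45 (SE, adjusted p = 0.00011) in KO:HOM livers on the log2 scale. Of 7 platelet markers 3 were tested, and Pf4, a chemokine that macrophages also make, rose in both. The sums were 3.43 to 5.38 CPM in DN:WT, 5.51 to 9.89 CPM in DN:HOM, 1.46 to 6.32 CPM in KO:WT and 4.54 to 8.94 CPM in KO:HOM livers, and Gp1bb was at 0 CPM in each of these groups. Pf4 changed by 2.76 ± 0.41 (SE, adjusted p = 1.5e-07, and 1.71 with adjusted p = 0.0028 over 48 libraries) in DN:HOM and by 1.48 ± 0.39 (SE, adjusted p = 0.0052) in KO:HOM livers. The part of blood cells in Pecam1 and Vwf was not tested. Hepatocyte marker sums were 69340 to 87570 CPM in DN:WT, 45370 to 54500 CPM in DN:HOM, 81360 to 105300 CPM in KO:WT and 61350 to 82960 CPM in KO:HOM livers. Of these 7 markers 5 fell in each homozygous group (in KO:HOM livers 2 in the fit of 48 libraries). With library size alone as the scaling, 3 fell and 2 rose in DN:HOM livers, and 2 fell in KO:HOM livers. Their median log2 fold changes were then -0.17 and -0.23, against 0.42 and 0.09 over all genes. Cps1 of the urea cycle changed by -1.38 ± 0.19 (SE, adjusted p = 5.2e-08, and -1.01 with adjusted p = 0.00046 over 48 libraries) in DN:HOM and Apoa1, the main HDL protein, by -0.63 ± 0.12 (SE, adjusted p = 0.00021) in KO:HOM livers on the log2 scale, and Trf, which encodes transferrin, by 0.34 ± 0.08 (SE, adjusted p = 0.00051, and 0.23 with adjusted p = 0.04 over 48 libraries) in DN:HOM livers.

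In homozygous knockout livers, 2 of the 10 members passed the test, where 19.4% of all genes did. Both, Stab2 and Plvap, were higher, as were 11.5% of all genes, while 7.87% of all were lower. No member had groups that did not overlap, a pattern seen in 2.55% of all genes. The members' median log2 fold change was 0.04, against -0.02 over all genes tested. Stab2 belongs to the sinusoidal and Plvap to the vascular genes.

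**Figure D2:**
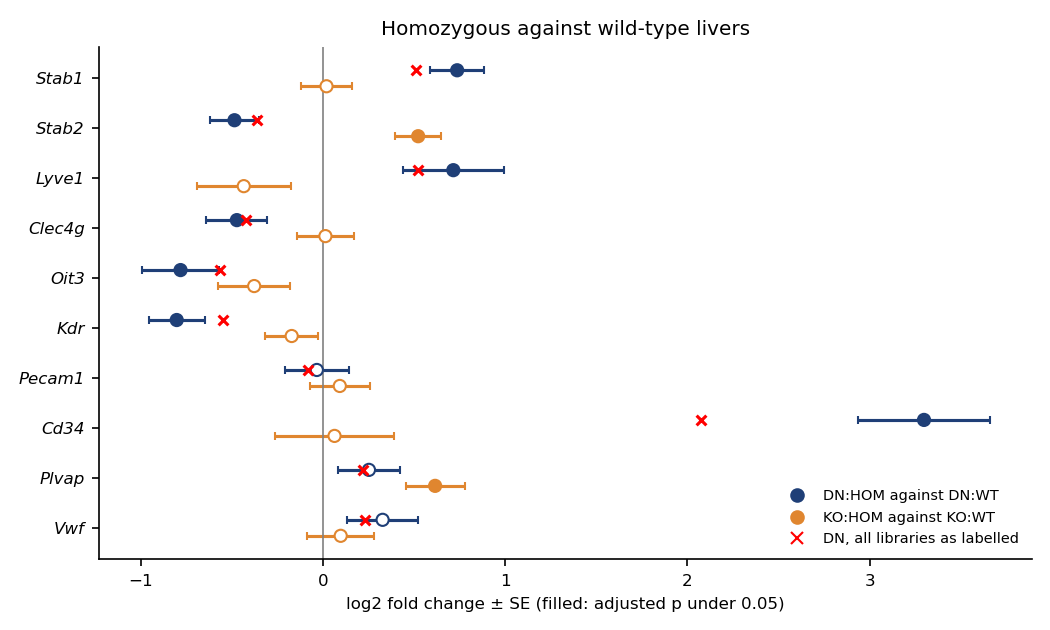
Log2 fold change ± SE (horizontal axis) of each gene in DN:HOM (blue) and KO:HOM livers (orange) against wild-type livers of the same study, filled where the adjusted p is under 0.05, with red crosses for the knock-in value over all 48 libraries. Cd34 stands apart at 3.30 in DN:HOM livers, and Stab2 lies at -0.49 in DN:HOM and at 0.52 in KO:HOM livers.

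The homozygous effect in the knock-in study minus that in the knockout study was tested as a difference of differences. It passed for 5 of 10 members, where 34.7% of all genes did. The knock-in effect was the higher for 3 members (16.5% of all genes) and the lower for 2 members (18.3% of all). Cd34 had a difference of 3.24 ± 0.48 (SE, adjusted p = 1e-06) on the log2 scale, and 2.003 ± 0.66 (SE, adjusted p = 0.041) over 48 libraries. For Stab2, which fell in the knock-in and rose in the knockout study, it was -1.01 ± 0.19 (SE, adjusted p = 3.8e-05), and -0.89 ± 0.19 (SE, adjusted p = 0.0045) over 48 libraries. Lyve1 differed by 1.15 ± 0.38 (SE, adjusted p = 0.015), Stab1 by 0.72 ± 0.20 (SE, adjusted p = 0.0048) and Kdr by -0.63 ± 0.21 (SE, adjusted p = 0.017). With all 48 libraries these became 0.95 ± 0.38 (SE, adjusted p = 0.092), 0.49 ± 0.23 (SE, adjusted p = 0.15) and -0.38 ± 0.24 (SE, adjusted p = 0.31) and no longer passed. Clec4g had a difference of -0.49 ± 0.23 (SE, adjusted p = 0.096), Oit3 of -0.40 ± 0.29 (SE, adjusted p = 0.3), Plvap of -0.36 ± 0.23 (SE, adjusted p = 0.24), Pecam1 of -0.13 ± 0.24 (SE, adjusted p = 0.72) and Vwf of 0.23 ± 0.27 (SE, adjusted p = 0.55), none of which passed. A difference in Plvap between the studies was therefore not shown, although it passed in the knockout study alone.

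Heterozygous livers, which were compared with the same wild-type livers as the homozygous ones, held no member that passed the edgeR test in either study. Of all genes, 2.3% passed in DN:HET and 0.0191% in KO:HET livers. At an unadjusted p under 0.05 there were 0 members in DN:HET and 1, Stab2, in KO:HET livers, and DESeq2 called 0 in each. Cd34 was at 0.775, 1.78 and 2.75 CPM in DN:HET livers, of which some lay within and some above the wild-type range. The 2 highest were animal 4 at 2.75 and animal 22 at 2.63 CPM, and these had summed macrophage markers of 811 and 863 CPM, against 106 to 325 CPM in the other DN:HET livers. Animal 8 was close to them in Cd34, at 2.45 CPM, with a macrophage sum of 145 CPM. The summed mesenchymal and stellate cell markers were 351.5 CPM in animal 4, 353 CPM in animal 22 and 275 CPM in animal 8. Animal 16, at 1.09 CPM of Cd34, had a mesenchymal sum of 347 CPM. In DN:HET livers 4 of 8 macrophage markers, 5 of 6 leukocyte markers and 3 of 11 adhesion and activation genes rose (0, 1 and 1 over 48 libraries), and their part in the level of Cd34 was not tested. Its log2 fold change was 0.72 ± 0.36 (SE, adjusted p = 0.38), and -0.32 ± 0.47 (SE, adjusted p = 1) with the library labelled DN:WT animal 10 among the wild-type livers, so that its sign turned. Stab2 was at 30.8, 45 and 54.95 CPM in KO:HET livers, between KO:WT and KO:HOM livers by its median, with a log2 fold change of 0.26 ± 0.13 (SE, adjusted p = 0.8). Kdr was at 14.6, 19.8 and 28.4 CPM in DN:HET livers, a log2 fold change of -0.14 ± 0.15 (SE, adjusted p = 0.77), and Stab1 at 28.4, 32.4 and 46.3 CPM, a log2 fold change of -0.02 ± 0.14 (SE, adjusted p = 0.97). The other members had log2 fold changes between -0.20 and 0.21 in DN:HET livers, and all members but Stab2 between -0.48 and 0.23 in KO:HET livers. In KO:HET animal 3, one of the shallow libraries, Cd34 had 0 reads, which allows a level of up to 0.604 CPM at 3 reads, counting error only.

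Wild-type livers of the studies were close for most members. Only Lyve1 passed, at the threshold, where 12% of all genes passed. It was at 5.18 ± 1.37 CPM (SD, n = 7) in DN:WT and 8.84 ± 3.81 CPM (SD, n = 8) in KO:WT livers, a log2 difference of DN:WT minus KO:WT of -0.78 ± 0.27 (SE, adjusted p = 0.05), and -0.69 ± 0.27 (SE, adjusted p = 0.08) over 48 libraries. It passed under 2 of the 9 settings that allow the comparison. Cd34 had the largest log2 difference, -0.93 ± 0.36 (SE, adjusted p = 0.085), which became 0.12 ± 0.47 (SE, adjusted p = 0.9) with the library labelled DN:WT animal 10 included.

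As a single description per liver, the mean log2 CPM of the 4 vascular genes minus that of the 5 sinusoidal genes was taken, without a test since the genes were chosen with results known. This difference was -1.40 ± 0.12 (SD, n = 7) in DN:WT, -1.24 ± 0.25 (SD, n = 8) in DN:HET and -0.40 ± 0.30 (SD, n = 7) in DN:HOM livers. The lowest DN:HOM liver, at -0.80, was above the highest DN:WT liver, at -1.21. Over all 48 libraries the groups overlapped, at -1.28 ± 0.35 (SD, n = 8) in DN:WT and -0.51 ± 0.42 (SD, n = 8) in DN:HOM livers. It was -1.33 ± 0.26 (SD, n = 8) in KO:WT, -1.29 ± 0.54 (SD, n = 8) in KO:HET and -1.04 ± 0.10 (SD, n = 8) in KO:HOM livers, which overlapped. KO:HET animal 3, with no Cd34 read and thus a Cd34 level set by the prior count, lay at -2.37, and without it the KO:HET value was -1.14 ± 0.34 (SD, n = 7). The homozygous minus wild-type shift was 1.003 in the knock-in and 0.29 in the knockout study. Without Cd34 the knock-in shift was 0.26, from -0.53 ± 0.17 (SD, n = 7) in DN:WT to -0.27 ± 0.31 (SD, n = 7) in DN:HOM livers, and the knockout shift was 0.31. Without Lyve1, Stab1 and Pecam1, which macrophages or leukocytes also express, the knock-in shift was 1.87 and the knockout shift 0.25, and this leaves out both sinusoidal genes that rose in DN:HOM livers. The separation of knock-in groups was lost when Cd34 was left out.

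**Figure D3:**
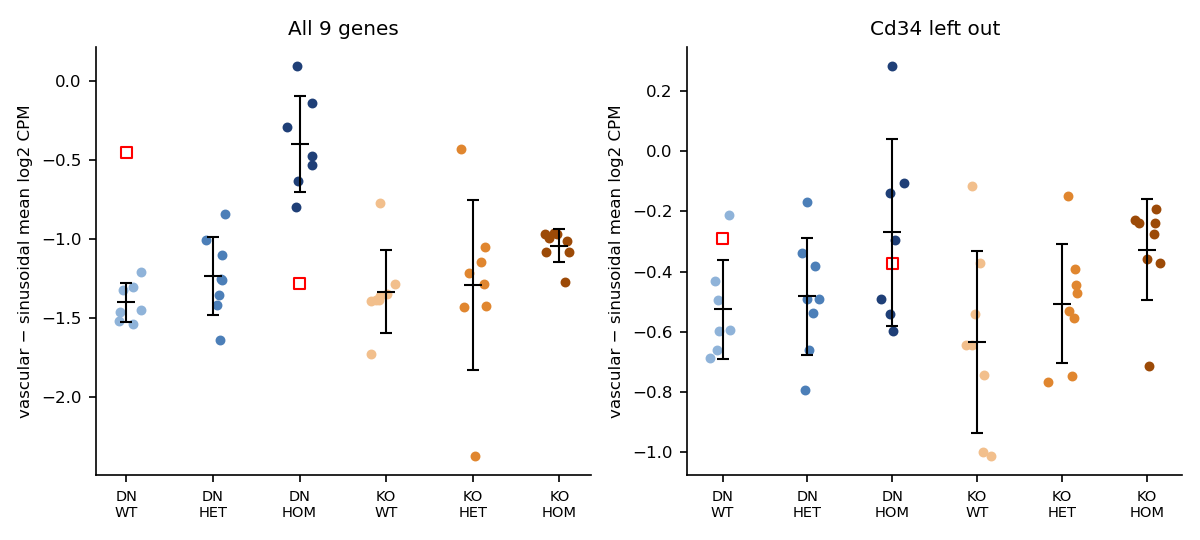
Mean log2 CPM of the vascular genes minus that of the sinusoidal genes (vertical axes) in each liver of the 6 groups, with all 9 genes at left and without Cd34 at right, points for the 46 livers, bars for mean ± SD and red squares for the 2 libraries left out. DN:HOM livers lie above DN:WT livers at left, and the groups overlap at right.

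Wider lists of endothelial genes were read by the same test, as counts beside the shares over all genes given above. Of 16 other sinusoidal genes tested, 8 fell and 3 rose in DN:HOM livers (5 and 3 over 48 libraries). Their median log2 fold change was -0.43, against -0.01 over all genes. With library size alone as the scaling 2 fell and 6 rose, and the median was -0.002, against 0.42 over all genes. Ehd3, which encodes an endocytic trafficking protein of sinusoids, changed by -1.40 ± 0.18 (SE, adjusted p = 1.3e-08, and -1.01 with adjusted p = 0.00047 over 48 libraries), and Fcgr2b, the inhibitory Fc receptor that clears immune complexes, by 0.80 ± 0.17 (SE, adjusted p = 6.1e-05, and 0.53 with adjusted p = 0.013 over 48 libraries) on the log2 scale. Gata4, the transcription factor known for sinusoidal identity and named here after its values were seen, changed by -0.69 ± 0.16 (SE, adjusted p = 0.00019, and -0.41 with adjusted p = 0.052 over 48 libraries, where it did not pass). Maf, another transcription factor of this list, went the other way, by 0.49 ± 0.13 (SE, adjusted p = 0.0008, and 0.36 with adjusted p = 0.018 over 48 libraries). In KO:HOM livers 4 of the 16 rose (2 in the fit of 48 libraries), with a median of 0.12, among them Plxnc1, a semaphorin receptor, by 0.61 ± 0.14 (SE, adjusted p = 0.0018). Dnase1l3, a secreted nuclease also named after its values were seen, parted in the same way as Stab2, by -1.05 ± 0.23 (SE, adjusted p = 9.2e-05, and -0.80 with adjusted p = 0.0043 over 48 libraries) in DN:HOM and by 0.59 ± 0.21 (SE, adjusted p = 0.038, and 0.60 with adjusted p = 0.075 in the fit of 48 libraries, where it did not pass) in KO:HOM livers, with a difference of -1.65 ± 0.31 (SE, adjusted p = 4.2e-05, and -1.40 with adjusted p = 0.0073 over 48 libraries).

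Of 23 pan-endothelial genes 12 fell and 2 rose in DN:HOM livers (8 and 1 over 48 libraries). Their median log2 fold change was -0.35, against -0.01 over all genes. With library size alone 2 fell and 3 rose, and the median was 0.09, against 0.42 over all genes. With upper-quartile and RLE scaling, most of the genes of both lists that passed were lower, as with TMM. Ptprb, the endothelial phosphatase VE-PTP, changed by -0.86 ± 0.16 (SE, adjusted p = 7.8e-06, and -0.63 with adjusted p = 0.0024 over 48 libraries) and Ramp2, the adrenomedullin receptor subunit, by 0.58 ± 0.17 (SE, adjusted p = 0.0031, and 0.47 with adjusted p = 0.017 over 48 libraries). Their summed level was 207 to 258 CPM in DN:WT and 137 to 236 CPM in DN:HOM livers, which overlapped. In KO:HOM livers 2 fell (1 in the fit of 48 libraries), with a median of -0.15, and Cdh5, the junctional VE-cadherin, changed by -0.89 ± 0.18 (SE, adjusted p = 0.0003). The sums there were 191 to 254 CPM in KO:WT and 171 to 250 CPM in KO:HOM livers. Pecam1, at -0.03 in DN:HOM livers, was among the members for which no change was shown.

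Most capillary and basement membrane genes that passed in DN:HOM livers were higher, under every scaling tried. Of 14 tested, 10 rose and 1 fell in DN:HOM livers (9 and 1 over 48 libraries), with a median log2 fold change of 1.04. Sparcl1, a matrix protein of vessels and stroma, changed by 3.23 ± 0.27 (SE, adjusted p = 1.7e-13, and 2.01 with adjusted p = 0.00027 over 48 libraries). Cd36, a fatty acid transporter that capillaries, macrophages and hepatocytes all use, changed by -1.55 ± 0.30 (SE, adjusted p = 2.8e-05, and -0.98 with adjusted p = 0.015 over 48 libraries). In KO:HOM livers 3 of the 14 rose (1 in the fit of 48 libraries), with a median of 0.16, among them Cav1, the coat protein of caveolae, by 1.37 ± 0.32 (SE, adjusted p = 0.0018). The basement membrane genes are also expressed by stellate cells, whose markers rose as given above, and their part in these values was not tested. Of 11 adhesion and activation genes 6 rose in DN:HOM livers (4 over 48 libraries) and 3 in KO:HOM livers, with medians of 0.90 and 0.31. Icam1, an adhesion molecule that leukocytes bind on endothelium and on macrophages, changed by 2.51 ± 0.40 (SE, adjusted p = 6.2e-07, and 1.52 with adjusted p = 0.0054 over 48 libraries) in DN:HOM livers, and Procr, the protein C receptor, by 2.71 ± 0.65 (SE, adjusted p = 0.002) in KO:HOM livers.

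Among 12 vascular growth factor ligands, 6 rose and 2 fell in DN:HOM livers (5 and 2 over 48 libraries), and 2 rose and 2 fell in KO:HOM livers. Pdgfb, the ligand that draws pericytes and stellate cells, changed by 2.91 ± 0.32 (SE, adjusted p = 1.8e-10, and 1.89 with adjusted p = 0.00036 over 48 libraries) in DN:HOM and by 1.45 ± 0.30 (SE, adjusted p = 0.00042) in KO:HOM livers. Bmp10, a ligand of the endothelial receptor ALK1, changed by -2.46 ± 0.25 (SE, adjusted p = 2.4e-11, and -2.004 with adjusted p = 2.6e-05 over 48 libraries) in DN:HOM livers. Vegfb, a ligand of FLT1, changed by -0.69 ± 0.15 (SE, adjusted p = 0.00058) in KO:HOM livers. Of 6 lymphatic genes 4 rose in DN:HOM livers (2 over 48 libraries), and Mmrn1, which encodes a protein of lymphatic vessels and platelets and was at 0.0777 ± 0.0977 CPM (SD, n = 7) in DN:WT and 0.800 ± 0.768 CPM (SD, n = 7) in DN:HOM livers, changed by 3.23 ± 0.95 (SE, adjusted p = 0.0033, and 2.33 with adjusted p = 0.018 over 48 libraries). In KO:HOM livers 0 lymphatic genes passed with edgeR, 1 had an unadjusted p under 0.05 and DESeq2 called 0. Prox1, the defining lymphatic factor, is also a hepatocyte gene and was at 118 ± 24.7 CPM (SD, n = 7) in DN:WT and 96.9 ± 14.3 CPM (SD, n = 7) in DN:HOM livers.

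**Figure D4:**
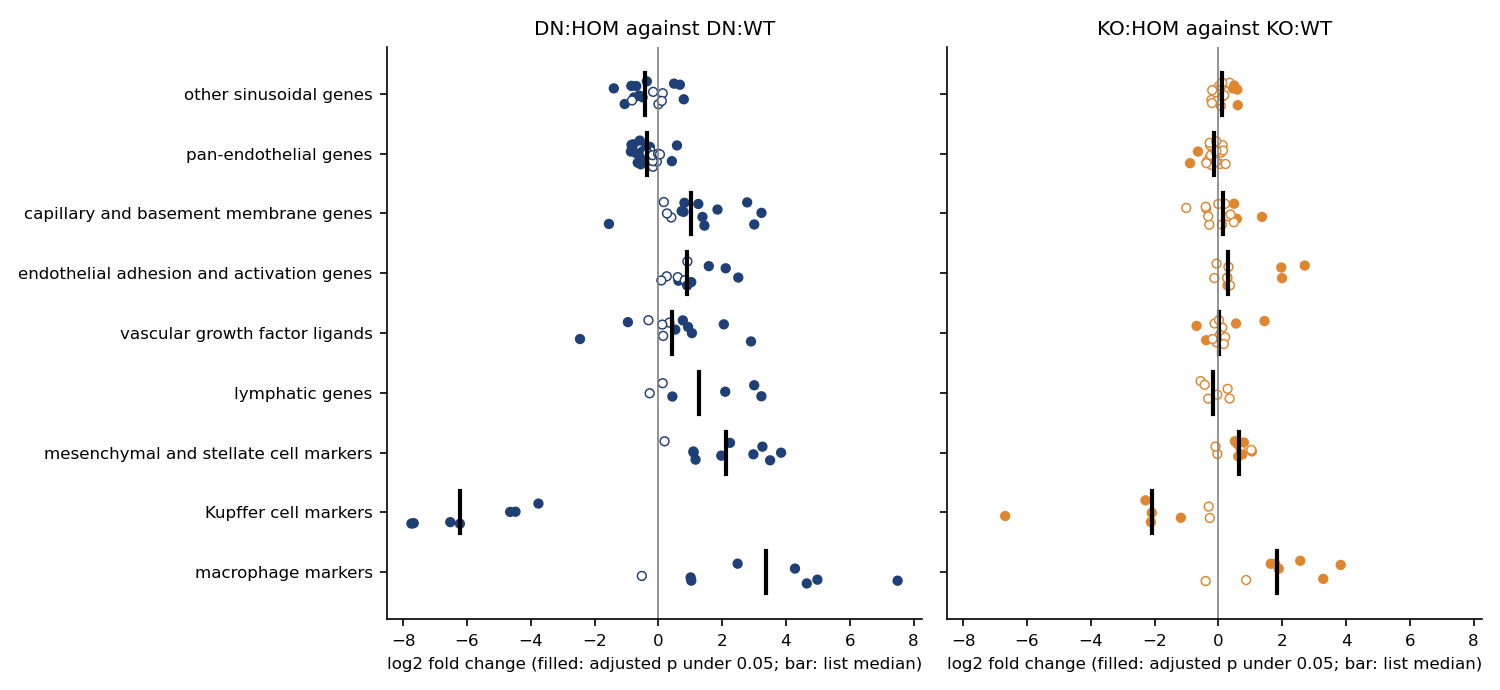
Log2 fold change (horizontal axes) of each tested gene of 6 vascular lists and 3 lists of other cells (rows) in DN:HOM livers at left and KO:HOM livers at right, filled where the adjusted p is under 0.05, with a bar at the median of each list. In DN:HOM livers the bars of the sinusoidal and pan-endothelial lists lie at -0.43 and -0.35 and that of the capillary and basement membrane list at 1.04.

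Livers of the same group also differed from each other, and many members then varied together. Each gene's log2 CPM minus its group mean was correlated over the 46 livers for all 45 pairs, with permutations within groups and p-values adjusted over the pairs. By Pearson's r, 16 pairs passed, all positive, and the median r of the 45 pairs was 0.32. Over all 68626470 pairs of the 11716 genes with a mean log2 CPM above 1 the median r was 0.00, and 5.99% of pairs had an r of at least 0.366, the smallest among the 16. Oit3 and Kdr had r = 0.74 (permutation p = 1e-05, adjusted p = 0.00022) and rho = 0.77 (permutation p = 1e-05, adjusted p = 0.00015). For them r was 0.70 without the 2 livers farthest from the median of Oit3, 0.74 among the 22 knock-in livers and 0.75 among the 24 knockout livers. Clec4g and Oit3 had r = 0.68 (permutation p = 4e-05, adjusted p = 0.00036) and rho = 0.70 (permutation p = 1e-05, adjusted p = 0.00015), and r was 0.73 without the 2 livers farthest from the median of Clec4g, 0.80 among the 22 knock-in livers and 0.55 among the 24 knockout livers. Clec4g and Kdr had r = 0.66 (permutation p = 3e-05, adjusted p = 0.00034) and rho = 0.65 (permutation p = 2e-05, adjusted p = 0.00022), and r was 0.68 without the 2 livers farthest from the median of Clec4g, 0.79 among the 22 knock-in livers and 0.50 among the 24 knockout livers. The smallest p that the 100000 permutations can give is 1e-05.

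Pecam1 varied with Stab1 and Lyve1 and also with Oit3, Kdr and Plvap. Stab1 and Pecam1 had r = 0.66 (permutation p = 1e-05, adjusted p = 0.00022) and rho = 0.60 (permutation p = 6e-05, adjusted p = 0.00054), and r was 0.59 without the 2 livers farthest from the median of Stab1, 0.40 among the 22 knock-in livers and 0.77 among the 24 knockout livers. Lyve1 and Pecam1 had r = 0.62 (permutation p = 2e-05, adjusted p = 0.0003) and rho = 0.63 (permutation p = 1e-05, adjusted p = 0.00015), and r was 0.59 without the 2 livers farthest from the median of Lyve1, 0.66 among the 22 knock-in livers and 0.61 among the 24 knockout livers. Oit3 and Pecam1 had r = 0.56 (permutation p = 9e-05, adjusted p = 0.00067) and rho = 0.58 (permutation p = 9e-05, adjusted p = 0.00067), and r was 0.60 without the 2 livers farthest from the median of Oit3, 0.49 among the 22 knock-in livers and 0.66 among the 24 knockout livers. Kdr and Pecam1 had r = 0.46 (permutation p = 0.0015, adjusted p = 0.0062) and rho = 0.51 (permutation p = 0.00069, adjusted p = 0.0031), Pecam1 and Plvap r = 0.51 (permutation p = 0.00072, adjusted p = 0.0032) and rho = 0.54 (permutation p = 0.00041, adjusted p = 0.0023), and Lyve1 and Oit3 r = 0.47 (permutation p = 0.00041, adjusted p = 0.0026) and rho = 0.44 (permutation p = 0.0033, adjusted p = 0.011). Stab1 and Lyve1 had r = 0.52 (permutation p = 0.00067, adjusted p = 0.0032) and rho = 0.47 (permutation p = 0.0029, adjusted p = 0.011), but r was 0.44 without the 2 livers farthest from the median of Stab1, 0.12 among the 22 knock-in livers and 0.67 among the 24 knockout livers, so the relation was not seen within the knock-in study. The same held for Stab1 and Vwf, with r = 0.37 (permutation p = 0.011, adjusted p = 0.032) and rho = 0.38 (permutation p = 0.013, adjusted p = 0.032), where r was 0.31 without the 2 livers farthest from the median of Stab1, 0.01 among the 22 knock-in livers and 0.71 among the 24 knockout livers. Stab1 and Stab2, which parted in DN:HOM livers, had r = 0.21 (permutation p = 0.17, adjusted p = 0.25) and rho = 0.18 (permutation p = 0.26, adjusted p = 0.33). For them r was 0.13 without the 2 livers farthest from the median of Stab1, -0.10 among the 22 knock-in livers and 0.38 among the 24 knockout livers. Cd34 was in no pair that passed by r, with values between -0.14 and 0.34, although by rank it passed with Lyve1 (rho = 0.41, adjusted p = 0.024) and Pecam1 (rho = 0.42, adjusted p = 0.016). All values come from the same libraries and share their depth and scaling.

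**Figure D5:**
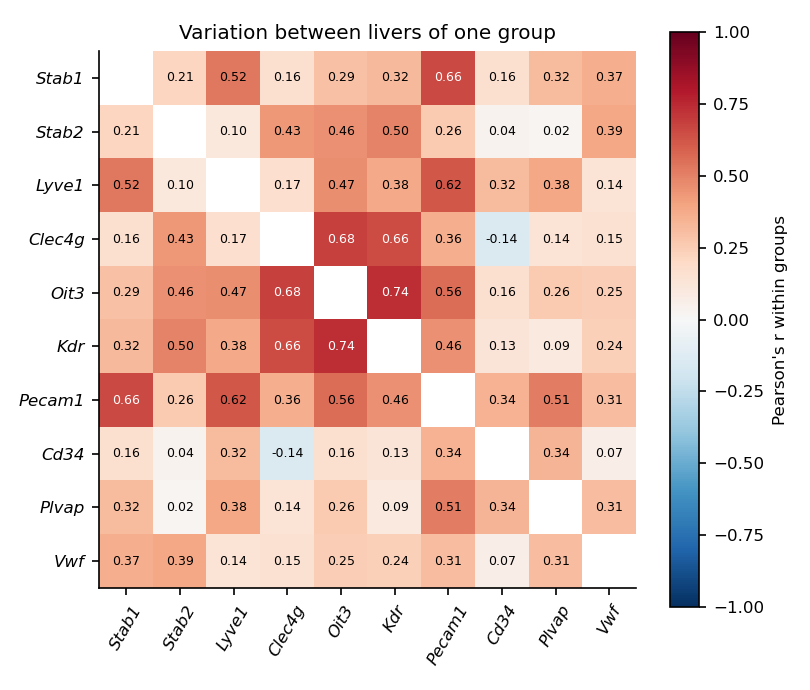
Pearson's r between each pair of the 10 genes over 46 livers, after subtraction of group means, on a scale from -1 (blue) to 1 (red). The pairs of Clec4g, Oit3 and Kdr lie at 0.66 to 0.74, and Pecam1 lies at 0.66 with Stab1, 0.62 with Lyve1, 0.56 with Oit3 and 0.51 with Plvap.

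Outside the set, the genes closest to each member in this variation were taken among 11706 tested genes with a mean log2 CPM above 1, as a description without a test. Oit3 was closest to Gpr182 (r = 0.82, rho = 0.83), Ehd3 (r = 0.82, rho = 0.80) and Ptprb (r = 0.81, rho = 0.85), which are all in the endothelial lists above. Clec4g was closest to Bmp2 (r = 0.79, rho = 0.72), Aqp1 (r = 0.74, rho = 0.77) and Ehd3 (r = 0.71, rho = 0.59), and Kdr to Aqp1 (r = 0.78, rho = 0.78), Ptprb (r = 0.76, rho = 0.75) and Cd300lg (r = 0.74, rho = 0.71). Stab2 was closest to Plxnc1 (r = 0.69, rho = 0.65), Tnks (r = 0.65, rho = 0.61) and Ptprb (r = 0.64, rho = 0.62). Stab1 was closest to Sipa1 (r = 0.78, rho = 0.73), Mlxip (r = 0.77, rho = 0.72) and Myo7a (r = 0.74, rho = 0.71), Lyve1 to Cd93 (r = 0.68, rho = 0.63), Tent5c (r = 0.66, rho = 0.60) and Ndrg1 (r = 0.66, rho = 0.63) and Pecam1 to Mrc1 (r = 0.76, rho = 0.71), Eng (r = 0.75, rho = 0.77) and Entpd1 (r = 0.75, rho = 0.76). Mrc1 is the mannose receptor that sinusoids share with macrophages, and Eng is endoglin of all endothelium. Cd34 was closest to Col6a2 (r = 0.83, rho = 0.67), Fstl1 (r = 0.78, rho = 0.59) and Sox4 (r = 0.77, rho = 0.56), of which Col6a2 encodes a collagen and Fstl1 a secreted glycoprotein of stroma, and Plvap to Prelp (r = 0.83, rho = 0.73), Tnfrsf21 (r = 0.79, rho = 0.75) and Tbc1d1 (r = 0.78, rho = 0.77), of which Prelp encodes a matrix proteoglycan. Vwf was closest to Ipo7 (r = 0.68, rho = 0.71), Dnmbp (r = 0.60, rho = 0.66) and Dock1 (r = 0.59, rho = 0.59).

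The scaling bears on the direction of small changes, and with library size alone the median log2 fold change of all genes in DN:HOM livers was 0.42, against -0.01 with TMM. Of all calls, 49.3% were higher in DN:HOM livers with TMM and 84.2% with library size alone, and in KO:HOM livers 59.4% with TMM, 69.5% with upper-quartile scaling and 85.7% with library size alone. No member that passed changed direction with library size alone.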

How the data were processed

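Livers from 48 mice were sequenced as stranded poly(A) RNA libraries, and per the labels each library is a separate animal. The authors aligned reads with STAR 2.5.0a to GRCm39 and deposited STAR gene counts, unstranded and for each strand. The strand that held more reads was used here, and it exceeded the opposite strand by 6.97 to 8.62 times in every library. Between 24.0% and 35.0% of reads (median 26.6%) lay in the 4 lines that name no gene and were left out. Of the gene identifiers, 98.8% matched the Ensembl annotation of the same build. All members that overlap another gene do so on opposite strands.

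Low genes were removed with filterByExpr, and counts were fitted in edgeR 4.0.16 (R 4.3.3) after TMM scaling, with a mean for each of 6 groups. The test was the quasi-likelihood F test, with the Benjamini-Hochberg adjustment over all genes tested. The contrasts compared HET or HOM with WT livers, and others the homozygous effects and the wild-type livers between studies. Per-liver CPM and log2 CPM (prior count 2) used TMM over 48 libraries. The main fit left out the library labelled DN:WT animal 10 and that labelled DN:HOM animal 12. Scaled without them, 154 of 176 values of the study's source data were matched within a relative tolerance of 1e-05, against 7 of 176 with them. Heterozygous and homozygous livers share wild-type controls. The study's own method, DESeq2 (1.42.0), was an alternative, with other scalings, filters, strands, livers and thresholds. Correlations used 100000 permutations within groups. The script was tested on simulated data.

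The members and gene lists were chosen with earlier results of these data known. Besides the members, the text names from each list the gene with the largest rise and fall among those that passed in each homozygous comparison, genes that a result on a member turns on, Nr1h3, and the 3 closest genes by r. Gata4, Maf, Dnase1l3, Prox1 and Gp1bb are named outside that rule. Fractions of cells and levels per cell were not measured. The sequence upstream of 1 member is not reported here.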

Additional observations from a re-analysis of the deposited data

Results flagged for a closer look

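In 80 sets of values (each member in each group of 4 to 10 livers, where chance gives a stray value in about 5%), a few livers stood apart from the rest of their group in log2 CPM. Clec4g was at 19.5 CPM in DN:WT animal 7, below the other wild-type livers. Vwf was at 11.9 CPM in DN:HET animal 8, above the other heterozygous livers. Cd34 was at 0 CPM in KO:HET animal 3, the library with the fewest reads. With all 48 libraries, Cd34 stood apart at 9.77 CPM in the library labelled DN:WT animal 10 and at 0.979 CPM in the library labelled DN:HOM animal 12, where Stab1 stood apart at 30 CPM.

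The homozygous effect differed between the knock-in and the knockout study by the test of the difference itself for 5 members, where 34.7% of all genes passed. These log2 differences of knock-in minus knockout were 3.24 for Cd34, 1.15 for Lyve1, 0.72 for Stab1, -0.63 for Kdr and -1.01 for Stab2. Over all 48 libraries Cd34 and Stab2 still passed, while Lyve1, Stab1 and Kdr did not, at adjusted p of 0.092, 0.15 and 0.31 by edgeR. Study, line and site cannot be told apart in them.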

How the results depend on the processing

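Counts of called members kept within 1.5 times of the main count except as follows. A log2 fold change of at least 1 as a further threshold left 1 member (Cd34) in DN:HOM, 0 in KO:HOM and 3 in the difference between studies. That difference held 2 members over all 48 libraries and 3 at an adjusted p under 0.01. The single call between wild-type livers, Lyve1, became 0 with all 48 libraries, without the libraries under 10000000 reads, with upper-quartile scaling, RLE scaling or library size alone, without a filter on low counts, and at either stricter threshold. The vascular minus sinusoidal shift in the knock-in study was 1.87 without Lyve1, Stab1 and Pecam1 and 0.26 without Cd34, an alternative chosen after seeing the data. Of 580 fold changes of members under the alternatives, 547 kept direction and call, 15 lost the call, 4 gained it (Plvap in 2 settings, Vwf, and Cd34 between wild-type livers), 14 that had not passed changed sign, and no member that passed did. Plvap passed in DN:HOM livers when each study was fitted alone (0.29, adjusted p = 0.038). The causes were not tested. Over all genes, calls went from 5456 to 1636 for the difference between studies and from 3048 to 2016 in KO:HOM livers when all 48 libraries were fitted. No paired analysis was possible because the animal numbers name different animals in each group. Depth limits Cd34, which had few reads in most groups.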
